A study of Mus musculus with 12 samples.

Results

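The connexin genes *Gja1*, *Gjb2* and *Gjc1* and the pannexin gene *Panx1* were followed through RNA sequencing of skeletal muscle fibroblasts treated with aldosterone, spironolactone or vehicle. These 4 members, of 28995 genes listed in any of the 3 deposited tables, were picked by name with their response to aldosterone already known, so their changes between treatments are given as a description without a test. The fibroblasts came from hindlimb muscle of 2 wild-type C57/BL10 mice on postnatal day 3. They were purified by adherence to plastic, grown to passage 2, and moved to medium with charcoal-stripped serum before treatment, so all 3 groups lacked most serum steroids. Cells of each mouse were pooled, re-plated on 2 plates per treatment and exposed for 48 hours to 1 µM aldosterone, the agonist of the mineralocorticoid receptor (MR), to 1 µM spironolactone, its antagonist, or to DMSO as vehicle. Each treatment has 4 libraries. Their labels carry 2 numbers, here called the sample number and the replicate number, without saying which is the mouse, so p-values measure only the spread between these samples, part of which may be technical.

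Connexins assemble into channels in the plasma membrane, and channels of neighboring cells dock to form gap junctions through which ions and small metabolites pass. Pannexins form large-pore channels that release ATP and other small molecules to the outside of the cell and are not thought to build gap junctions in most tissues. *Gja1* encodes Cx43, the main connexin of fibroblasts. *Gjb2* encodes Cx26, known from the skin and the inner ear, *Gjc1* encodes Cx45, known from the cardiac conduction system and smooth muscle, and *Panx1* encodes the broadly expressed pannexin. In mammals a steroid receptor such as MR binds DNA at hormone response elements built from copies of the half-site AGAACA.

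The 4 members are protein-coding genes on separate chromosomes. In the coordinates of the deposited tables, labelled mm39, *Gja1* lies at chr10:56253426-56278609 on the plus strand. On the minus strand lie *Gjb2* at chr14:57336057-57342159, *Gjc1* at chr11:102690405-102710526 and *Panx1* at chr9:14913424-14956774. No other gene of the tables overlaps any of the 4. *Gjb2* has a connexin neighbor, *Gja3*, and the span of 70.2 kb that holds both contains only these 2 genes.

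The upstream DNA of the members is shown because all 4 were lower with aldosterone and hormone response elements can lie near promoters. A RefSeq-based table of promoters (build GRCm38.p6, which is not the build of the expression tables) held windows for 5 of 6 channel genes looked for. These were *Gja1*, *Gjb2*, *Panx1*, *Gjb5* and *Gja3*. *Gjc1* had no entry. The 250 bases that end just before the annotated start are given 5′ to 3′ on the gene's strand for 3 members and for *Gjb5*, a connexin gene that was higher with aldosterone. Capitals mark any match to the motifs searched on both strands.
*Gja1*, chr10:56377050-56377299, plus strand: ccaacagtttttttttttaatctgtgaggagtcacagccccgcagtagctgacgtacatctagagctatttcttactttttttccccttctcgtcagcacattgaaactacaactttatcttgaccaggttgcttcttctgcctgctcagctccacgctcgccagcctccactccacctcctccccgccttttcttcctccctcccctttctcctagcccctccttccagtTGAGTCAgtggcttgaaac
*Gjb2*, chr14:57104703-57104952, minus strand: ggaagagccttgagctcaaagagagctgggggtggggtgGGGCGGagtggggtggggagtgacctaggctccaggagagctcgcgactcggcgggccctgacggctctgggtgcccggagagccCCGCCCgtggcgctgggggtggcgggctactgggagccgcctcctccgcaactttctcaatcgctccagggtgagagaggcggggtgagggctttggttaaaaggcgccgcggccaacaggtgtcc
*Panx1*, chr9:15045479-15045728, minus strand: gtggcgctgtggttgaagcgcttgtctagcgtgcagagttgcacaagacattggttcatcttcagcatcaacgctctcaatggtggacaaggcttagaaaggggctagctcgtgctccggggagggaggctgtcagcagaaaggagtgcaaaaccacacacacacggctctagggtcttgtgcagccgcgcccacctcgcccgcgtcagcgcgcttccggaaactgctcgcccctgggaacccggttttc
*Gjb5*, chr4:127358165-127358414, minus strand: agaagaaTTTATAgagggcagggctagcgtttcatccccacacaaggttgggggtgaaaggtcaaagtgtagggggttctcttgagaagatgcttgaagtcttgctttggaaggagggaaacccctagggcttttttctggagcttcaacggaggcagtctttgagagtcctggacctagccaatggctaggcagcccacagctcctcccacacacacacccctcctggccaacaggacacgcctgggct

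The motifs were the half-site AGAACA, its palindrome (GNACA and TGTNC with 3 bases between them, which can share letters with the half-site), the GC box GGGCGG, the AP-1 site TGANTCA, the TATA box TATAAA and the E-box CACGTG. Neither the half-site nor the palindrome was in any of the 4 windows shown, against 16.1% and 0.387% of 32851 windows of the same length from all genes. *Gja1* had 1 AP-1 match, with TGAGTCA starting 19 bases before the gene, and 6.75% of all windows have one. *Gjb2* had GC boxes starting 211 bases upstream on its own strand and 126 bases upstream on the other strand, and 32.7% of all windows hold at least 1. The *Gjb2* window was also rich in G and C (69.2%, above 89.6% of all windows), whereas that of *Gja1* (50.0%) was below the median of 52.4%. No searched motif was in the *Panx1* window, where 59.6% of bases were G or C. *Gjb5* had 1 TATA match on the other strand, 243 bases upstream, and 12.4% of windows hold one. The E-box was in none of these windows and in 6.02% of all. These are matches of letters in a short window and say nothing of elements farther away.

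Libraries held 19136923 to 30219185 reads on genes (median 23833379). *Fkbp5* and *Per1*, known responders to steroid receptors, were higher with aldosterone than with vehicle by 4.26 and 1.83 on the log2 scale (limma adjusted p = 4.02e-15 and 3.34e-12). Fibroblast markers were abundant. Their summed level per length, in TPM (counts divided by gene length and brought to 1 fixed total per library), ran from 15742 to 17660 with vehicle, from 13318 to 15671 with spironolactone and from 10921 to 13326 with aldosterone. Of the 6, *Pdgfra* was called higher and *Col3a1* lower with aldosterone against vehicle (0.91 and -0.43, limma adjusted p = 2.93e-08 and 0.000442). Under a replicate block on the sample number *Col1a1*, *Dcn*, *Lum* and *Thy1* were also lower, by 0.24 to 0.37 (limma adjusted p at most 0.000260), so 5 of 6 were lower. In that blocked fit *Dcn* and *Lum* were also lower with spironolactone than with vehicle (-0.21 and -0.34, adjusted p = 0.0294 and 0.00187). Between aldosterone and spironolactone *Dcn*, *Lum* and *Col1a1* did not pass (adjusted p = 0.48, 0.83 and 0.0890), whereas *Col3a1* and *Thy1* were lower with aldosterone (adjusted p = 7.21e-07 and 0.000742). The part of these marker shifts in the members' values was not tested. Epithelial markers, of which *Krt5*, *Krt14* and *Epcam* had at most 5 reads in any library, summed to between 0.291 and 1.23 TPM. Macrophage markers reached at most 5.99 TPM, myogenic markers 6.18 and Schwann cell markers 3.52. *Adgre1* had 0 reads in all vehicle and spironolactone libraries and *Ptprc* 0 in all aldosterone libraries, and *Pax7* and *Myf5* were not listed for every library. Endothelial markers summed to between 2.37 and 4.62 TPM with aldosterone and at most 1.84 in the other libraries. Within this sum *Kdr* averaged 0.811 TPM with vehicle and 2.83 with aldosterone, *Cdh5* 0.366 and 0.552, and *Pecam1* 0.171 and 0.0697. Pericyte and smooth muscle markers summed to between 152 and 208 TPM with vehicle, 112 and 184 with aldosterone and 154 and 215 with spironolactone. Of these 4 markers limma called 0 with aldosterone against vehicle, and under the replicate block *Cspg4* (-0.31, adjusted p = 1.24e-05) and *Notch3* (-0.30, adjusted p = 0.00236) were lower. Their part in the members' values was not tested.

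Of the channel genes reported, *Gja1* was the most abundant in all 3 treatments. Levels of different genes are compared here per length, in TPM, and *Gja1* stood at 72.4 ± 4.49 with vehicle (mean ± SD, n = 4 libraries), 58.4 ± 4.14 with aldosterone and 67.3 ± 4.57 with spironolactone. In vehicle this level was above that of 90.6% of the 26161 genes with a value in every library. *Gjb5* (18.9 ± 3.85) and *Gjc1* (17.1 ± 0.435) came next in vehicle, and their libraries overlapped. *Panx1* (7.39 ± 1.11), *Gjb2* (5.25 ± 2.21), *Gja3* (2.60 ± 0.902) and *Panx3* (2.11 ± 0.640) followed, each overlapping with the next. The other 7 genes of the family were under 0.31 TPM in vehicle. Of the 20 connexin and pannexin genes looked up, 14 were in the tables and 6 in none. With aldosterone *Gjb2* fell behind *Panx3* (1.66 ± 0.169 TPM), to 0.950 ± 0.229, without overlap, whereas the order of the other genes named here stayed as in vehicle. *Panx1* remained the leading pannexin with 75.1% ± 7.72 of the summed pannexin level in vehicle, 72.8% ± 2.30 in aldosterone and 78.9% ± 7.34 in spironolactone (n = 4 libraries each).

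The 4 members were all lower with aldosterone, *Gjb2* by far the most. The per-library values that follow are normalized counts after 1 scaling of all 12 libraries, and they compare the same gene between libraries. For *Gja1*, the vehicle libraries held 4423 and 4512 normalized counts in sample number 1 and 4732 and 4821 in sample number 2. The aldosterone libraries held 3674 and 3919 in sample number 1 and 4160.0 and 4214 in sample number 2, and the spironolactone libraries 4109 and 4242, then 4519 and 4587. Every aldosterone library was below every vehicle library, but over both sample numbers the spironolactone libraries overlapped with both groups. Within each sample number the spironolactone libraries lay above the aldosterone and below the vehicle libraries. Counts of a bulk culture cannot tell fewer cells of a type from less RNA per cell.

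*Gjb2* held 100.5 and 115 normalized counts in the vehicle libraries of sample number 1 and 58.2 and 42.6 in those of sample number 2. With aldosterone the values were 15.8 and 20.6, then 11.2 and 13.5. With spironolactone they were 93.2 and 106, then 56.6 and 66.5. The aldosterone libraries lay below all others without overlap, and the vehicle and spironolactone libraries covered the same range. The means were 79.1 ± 34.2 with vehicle, 15.3 ± 3.99 with aldosterone and 80.5 ± 22.9 with spironolactone (SD, n = 4), so vehicle was 5.18-fold and spironolactone 5.27-fold above aldosterone. These rest on 320 reads over the vehicle libraries, 62 over the aldosterone libraries and 339 over the spironolactone libraries, with 12 reads in the lowest library.

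*Gjc1* was close to even in vehicle, with 535 and 525 normalized counts in sample number 1 and 544 and 531 in sample number 2. Aldosterone libraries had 409 and 470.3, then 499 and 419, all below the vehicle libraries. Spironolactone libraries were the most spread, with 613 and 501, then 663 and 515, and their lowest value was above the highest with aldosterone. For *Panx1*, vehicle libraries held 292 and 331, then 265 and 224, and aldosterone libraries 217 and 192, then 225 and 216. The highest aldosterone library, at 225, just passed the lowest vehicle library. Spironolactone libraries held 305 and 301, then 263 and 258, all above aldosterone.

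**Figure D1:**
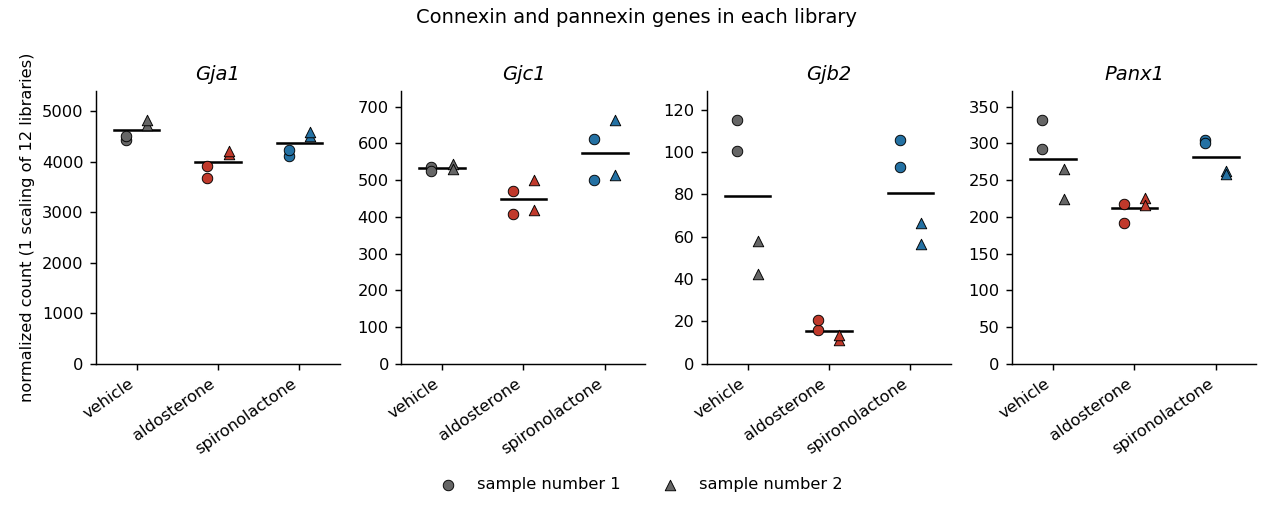
Normalized counts (y axis, linear, starting at 0) of the 4 members in each of the 12 libraries, by treatment (x axis), with circles for sample number 1, triangles for sample number 2 and a bar for the mean of 4 libraries. *Gjb2* in aldosterone stays at or below 20.6, under all vehicle and spironolactone libraries, and the other 3 genes show smaller shifts.

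Fitted to each pair's own table on log2(normalized count + 1), the differences between aldosterone and vehicle were -2.22 ± 0.32 for *Gjb2*, -0.37 ± 0.12 for *Panx1*, -0.25 ± 0.08 for *Gjc1* and -0.21 ± 0.06 for *Gja1* (limma log2 fold change ± SE). The median over these 4 was -0.31, beside -0.01 over all genes of the table. *Gjb2* and *Gja1* were among the genes called lower at an adjusted p of at most 0.05 by limma. That makes 2 of 4 members, beside 4.74% of the 27319 genes called lower and 5.68% called higher. Under a replicate block on the sample number, and by edgeR or DESeq2, it was 4 of 4. Over all genes the block called 2192 of 27319 lower and edgeR 1418 of 15416. DESeq2 called 1514 lower of 16521 genes with an adjusted p. Nothing is read from the counts of members, since they were chosen on this contrast.

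Against spironolactone, the differences were -2.31 ± 0.27 for *Gjb2*, -0.40 ± 0.10 for *Panx1*, -0.35 ± 0.10 for *Gjc1* and -0.13 ± 0.06 for *Gja1*. Their median was -0.37, with -0.01 over all genes. *Gjb2*, *Panx1* and *Gjc1* were called lower, 3 of 4 members, beside 3.96% of 27631 genes called lower and 4.93% called higher. Under the replicate block it was 4 of 4, beside 1879 of 27631 genes called lower. Nothing is read from these counts either, since the members were chosen with their response to aldosterone known. Both contrasts use the same aldosterone libraries, so one is not a repeat of the other.

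Spironolactone libraries held the members at the level of vehicle within the spread between libraries. The differences were 0.09 ± 0.28 for *Gjb2*, 0.09 ± 0.09 for *Gjc1*, 0.03 ± 0.11 for *Panx1* and -0.08 ± 0.05 for *Gja1*. No member was called by limma, edgeR or DESeq2, and none was at an unadjusted p under 0.05 in these 3. Under the replicate block on the sample number 0 were called. There 1 member, *Gja1* (-0.08 ± 0.04), was lower at an unadjusted p under 0.05, beside 2127 of 27598 genes in either direction. In the whole table limma called 0 genes in either direction, which is 0% higher and 0% lower of 27598, with 1251 genes at an unadjusted p under 0.05. edgeR also called 0, DESeq2 called 12 higher and 1 lower, and the fit under the replicate block called 63 higher and 34 lower. Within each sample number, *Gja1* was lower with spironolactone than with vehicle in all plates, by 0.10 in number 1 and 0.07 in number 2 on the log2 scale, and the other members overlapped.

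**Figure D2:**
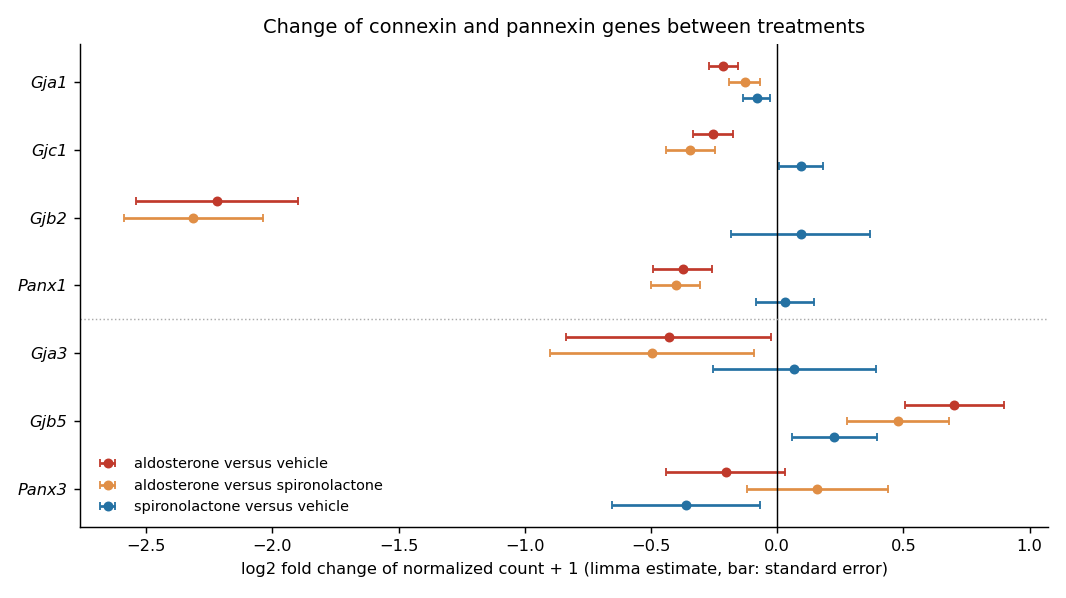
Log2 fold changes of 7 connexin and pannexin genes (y axis) in the 3 treatment comparisons, with bars for the standard error of the limma fit (x axis, log2 scale, 4 libraries per group). *Gjb2* lies near -2.22 and -2.31 in the aldosterone comparisons, the other members between -0.40 and -0.13, and *Gjb5* on the positive side, at 0.70 and 0.48.

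The fall of the members was also read within each sample number, where each group has 2 plates. *Gjb2* in vehicle was 5.93-fold its level in aldosterone in sample number 1 (means 108 and 18.2) and 4.07-fold in sample number 2 (50.4 and 12.4). *Gja1* in vehicle was 1.18-fold and 1.14-fold its aldosterone level, and *Gjc1* 1.21-fold and 1.17-fold. For these 3 genes the aldosterone plates were below the vehicle plates of the same number without overlap. The share of all genes with such a gap was not counted, and the members were chosen on this contrast, so nothing is read from it. *Panx1* was 1.52-fold higher with vehicle in sample number 1 but 1.11-fold in sample number 2, where the plates overlapped.

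That contrast of the sample numbers was tested directly, as the members had not been chosen on it. The interaction of aldosterone versus vehicle with the sample number was 0.46 ± 0.17 for *Panx1*, 0.58 ± 0.42 for *Gjb2*, 0.05 ± 0.08 for *Gja1* and 0.04 ± 0.17 for *Gjc1* (limma on 12 libraries, log2 ± SE). Adjusted p was 0.91 for *Panx1* and between 0.93 and 0.99 for the others, so 0 of 4 members were called by limma or edgeR, and *Panx1* alone had an unadjusted p under 0.05. Of the further family genes limma tested 10 and edgeR 4, and each called 0, with 0 at an unadjusted p under 0.05 by either. Over all 26161 genes, 0.00382% were called with a positive and 0.00764% with a negative interaction.

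Of the 4 members, 2 differed between the sample numbers. Only 2 sample numbers exist, so p-values for this difference, here and below, measure the spread between these libraries and do not extend to further samples. Over all 12 libraries with treatment in the fit, *Gjb2* was lower in sample number 2 than in number 1 by 0.76 ± 0.18 on the log2 scale (limma adjusted p = 0.00302), and its plates did not overlap between numbers in any of the 3 treatments. *Gja1* was higher in sample number 2 by 0.12 ± 0.03 (limma adjusted p = 0.00724), likewise without overlap in the 3 treatments. For *Gjc1* the difference was 0.05 ± 0.07 (adjusted p = 0.72) and for *Panx1* -0.15 ± 0.08 (adjusted p = 0.26), so neither passed. The calls of 1 member higher and 1 lower stood beside 5.75% and 6.59% of all genes tested, and both held with any single library left out.

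Of the 10 further family genes tested, 2 connexin genes were lower in sample number 2. *Gja3*, a lens connexin, fell by 1.16 ± 0.20 (limma adjusted p = 0.000137), from a mean of 63.5 to 29.2 normalized counts. *Gjb5*, known from the skin, fell by 0.64 ± 0.08 (adjusted p = 1.21e-06), from 320 to 201. Neither gene overlapped between the numbers in any of the 3 treatments, and both calls held with any single library left out. *Panx3* was 0.51 ± 0.19 higher without passing (adjusted p = 0.0968). In vehicle and spironolactone libraries alone, a check chosen after the data were seen, *Gja3* did not pass (adjusted p = 0.0865).

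Markers of pericytes and smooth muscle also differed by sample number, with 3 of 4 called lower in sample number 2, beside 6.59% of all genes. *Myh11*, the smooth muscle myosin, fell by 1.02 and *Rgs5*, a pericyte regulator of G-protein signaling, by 1.01, both on the log2 scale (limma adjusted p = 2.25e-14 and 4.46e-09). *Cspg4* fell by 0.32 (adjusted p = 6.70e-06). Of the fibroblast markers *Dcn*, *Lum* and *Pdgfra* were higher and *Thy1* lower. *Kdr*, a vascular endothelial receptor gene, was 1.03 lower in number 2 (adjusted p = 2.17e-05), and *Des*, the muscle intermediate filament gene, 0.57 lower (adjusted p = 0.00268). The part of these cell types in the connexin levels was not tested.

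**Figure D3:**
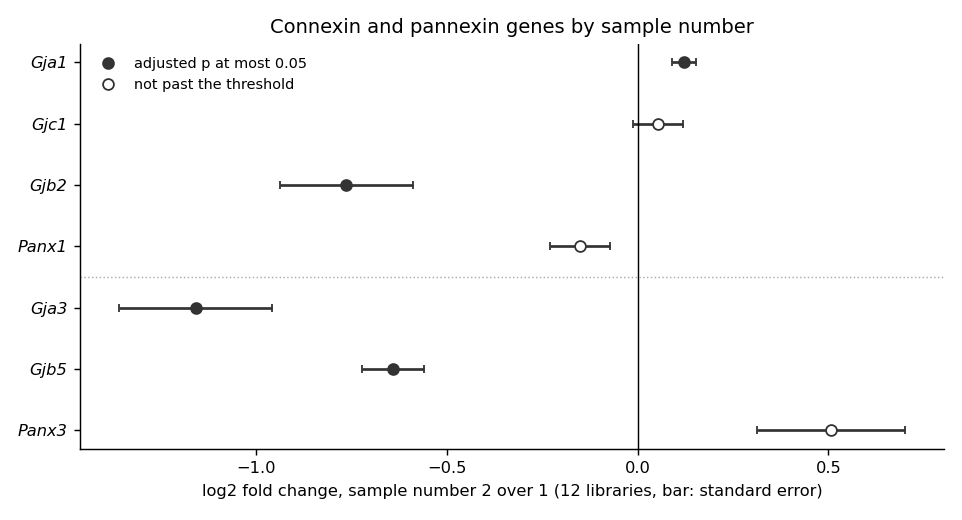
Log2 fold change between sample number 2 and sample number 1 for 7 connexin and pannexin genes (y axis), from a fit of 12 libraries with treatment as a term, with bars for the standard error (x axis, log2 scale). Filled points passed an adjusted p of at most 0.05: *Gja1* at 0.12 is the one above 0, and *Gjb2*, *Gja3* and *Gjb5* lie between -1.16 and -0.64.

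The remaining channel genes were split in direction. Of 16 further family genes looked up, 10 were tested, and with aldosterone against vehicle 1 was called higher, 0 lower and 9 were not called, with 6 above 0 and 4 below. Their median was 0.11, beside -0.01 over all genes, of which 5.68% were called higher and 4.74% lower. The called gene was *Gjb5*, at 0.70 ± 0.20 (limma adjusted p = 0.0311). Its vehicle libraries held 261 and 216 normalized counts in sample number 1 and 165 and 169 in sample number 2, and its aldosterone libraries 473 and 389, then 222 and 273. Groups overlapped over all libraries but not within either sample number. The *Gjb5* call held by edgeR and DESeq2 and under a replicate block on the sample number (adjusted p = 2.70e-06) but was lost whenever any single library was left out (adjusted p from 0.0660 to 0.28).

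Against spironolactone *Gjb5* had 0.48 ± 0.20 without a block and did not pass (limma adjusted p = 0.19). Its spironolactone libraries held 284 and 294 normalized counts in sample number 1 and 199.6 and 176 in number 2, below the aldosterone libraries of the same number. Under the replicate block the difference was 0.48 ± 0.09 and passed (adjusted p = 0.000188). *Gjb5* was thus higher with aldosterone in each sample number while *Gjc1*, close to it in level, was lower. In each number the spironolactone plates of *Gjb5* lay above its vehicle plates without overlap. The gaps were 0.28 in number 1 and 0.17 in number 2 on the log2 scale. Over all libraries this difference did not pass (0.23 ± 0.17, limma adjusted p = 0.93). Under the replicate block it was 0.23 ± 0.10 and did not pass either (limma adjusted p = 0.55).

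*Gja3* had -0.43 ± 0.41 with aldosterone against vehicle (limma adjusted p = 0.63). Its aldosterone libraries held 69.6 and 50.9 normalized counts in sample number 1 and 16.8 and 20.7 in number 2, and its vehicle libraries 63.9 and 59.5, then 44.6 and 25.1, so the groups overlapped in number 1 and not in number 2. *Gja3* was lower in sample number 2, as were its neighbor *Gjb2* on chromosome 14 and *Gjb5*. With aldosterone against vehicle *Gja3* differed by -0.05 in number 1 and -0.81 in number 2 on the log2 scale, and *Gjb2* by -2.51 and -1.93. *Panx3*, a pannexin of bone and skin, had -0.20 ± 0.24 (adjusted p = 0.69). *Gja4*, a connexin of vascular endothelium, had at most 11 reads in a library and 1.39 ± 0.58 (adjusted p = 0.17), and *Panx2*, also with at most 11 reads, 0.02 ± 0.47 (adjusted p = 0.99). The other 5 tested genes never reached 10 reads. Of the endothelial markers, *Kdr* was 1.88 ± 0.35 higher with aldosterone than with vehicle (limma adjusted p = 0.00183). *Cdh5* (0.73 ± 0.41, adjusted p = 0.36) and *Pecam1* (-0.95 ± 0.46, adjusted p = 0.25) did not pass and had opposite signs. *Gja4* averaged 2.09 normalized counts with vehicle, 6.21 with aldosterone and 5.30 with spironolactone, and *Kdr* 45.9, 171 and 49.7. Against spironolactone limma called 0 of 10 further family genes in either direction, with 1 at an unadjusted p under 0.05. edgeR called 0 of the 3 it tested and DESeq2 0 of the 4 to which it gave an adjusted p. Between spironolactone and vehicle limma called 0 of 10, again with 1 at an unadjusted p under 0.05, edgeR 0 of 3 and DESeq2 0 of 1.

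**Figure D4:**
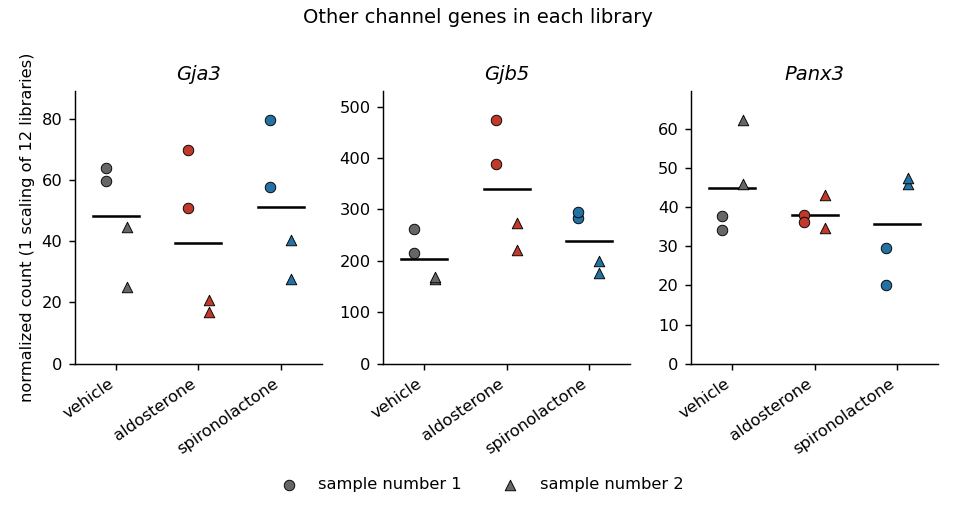
Normalized counts (y axis, linear, starting at 0) of *Gja3*, *Gjb5* and *Panx3* in each of 12 libraries, by treatment (x axis), with circles for sample number 1, triangles for sample number 2 and a bar for the mean. Circles lie above triangles for *Gja3* and *Gjb5* in all treatments, and *Gjb5* is higher with aldosterone than with vehicle within each number.

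Genes whose profile was most like a member's were taken as those at the smallest root-mean-square distance on the log2 scale over 12 libraries, after centring on vehicle, among 12286 genes averaging 50 normalized counts or more. For *Gja1* these were *Twsg1* at a distance of 0.03, *Rnf138* at 0.04 and *Zzz3* at 0.05. For *Gjb2* the nearest were farther off, *Nts* at 0.36, *F13a1* at 0.38 and *Ptgs2* at 0.44. *Nts*, the neurotensin gene, averaged 64.0 normalized counts with vehicle, 16.7 with aldosterone and 76.2 with spironolactone. *Ptgs2*, the inducible prostaglandin synthase, averaged 1022, 337 and 949, and *F13a1*, a clotting factor subunit, 172, 35.6 and 156. *Efna2*, *Alkbh6* and *Cep295* were nearest to *Gjc1*, and *Cep76*, *Ttll7* and *Col10a1* to *Panx1*, all at distances of 0.10 to 0.11.

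All 14 listed partners of Cx43, which bind, anchor, modify or degrade the channel, were tested. With aldosterone against vehicle 3 were called higher, 2 lower and 9 were not called, beside 5.68% higher and 4.74% lower of all genes, and the median was -0.00, beside -0.01 over all genes. *Cdh2*, the cell adhesion molecule N-cadherin, rose by 0.69 ± 0.06 (limma adjusted p = 1.26e-06). *Cav1*, the coat protein of caveolae, rose by 0.32 ± 0.07 (adjusted p = 0.00464), and *Ctnnb1*, the cadherin-bound β-catenin, by 0.28 ± 0.05 (adjusted p = 0.00183). *Ccn3*, a matricellular protein that binds the tail of Cx43, fell by 0.64 ± 0.11 (adjusted p = 0.00125). *Ubqln4*, a ubiquilin that takes part in the breakdown of Cx43, fell by 0.26 ± 0.06 (adjusted p = 0.00543).

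The same 5 partners were called in the same directions against spironolactone, a comparison that shares the aldosterone libraries. *Cdh2* differed there by 0.67 ± 0.06 (limma adjusted p = 7.65e-07) and *Ccn3* by -0.51 ± 0.13 (adjusted p = 0.0132). Calls of *Cdh2*, *Ctnnb1* and *Ubqln4* held in both comparisons with any single library left out. *Ccn3* lost its call against vehicle without each of 5 libraries (adjusted p up to 0.0785), and *Cav1* without each of 4 (adjusted p up to 0.0649). Against spironolactone *Ccn3* lost it without each of the 8 (up to 0.25) and *Cav1* without each of 5 (up to 0.0897). These fits held no block. With all libraries and a replicate block on the sample number, *Ccn3* had a limma adjusted p of 2.61e-13 against vehicle and 2.36e-11 against spironolactone. *Cav1* had 6.50e-08 and 1.09e-06 in the same fits. *Tjp1*, the scaffold protein that anchors Cx43 at junctions, had 0.13 ± 0.08 (adjusted p = 0.38) and passed only under a replicate block on the sample number (adjusted p = 0.0327). Between spironolactone and vehicle 0 of 14 were called by limma, edgeR or DESeq2, and 0 were at an unadjusted p under 0.05 in these 3. Under the replicate block 0 were called and 1 was lower at an unadjusted p under 0.05. By sample number 2 partners were higher and 2 lower, beside 5.75% and 6.59% of all genes. Among them was *Ccn3*, higher in number 2 by 0.43 ± 0.04 (limma adjusted p = 1.53e-09).

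Other large-pore channels were represented by 11 listed genes, of which 10 were tested. Against vehicle 1 was called higher and 1 lower, beside 5.68% and 4.74% of all genes. The median was 0.11, beside -0.01 over all genes. *Lrrc8d*, a subunit of volume-regulated anion channels, rose by 0.43 ± 0.10 (limma adjusted p = 0.00972), and *Lrrc8b*, another subunit, fell by 0.33 ± 0.09 (adjusted p = 0.0284). *Lrrc8d* also passed against spironolactone, by 0.48 ± 0.08 (adjusted p = 0.001005), with any single library left out. *Lrrc8b* did not pass there (-0.27 ± 0.09, adjusted p = 0.0755) except under a replicate block on the sample number (adjusted p = 0.0178). Against vehicle the *Lrrc8d* call was lost without each of 6 libraries (adjusted p up to 0.10) and the *Lrrc8b* call without each of 7 (up to 0.13). Those fits held no block, and with all libraries and the block the limma adjusted p was 0.000170 and 0.00328. *Lrrc8a*, which encodes the subunit these channels cannot lack, had 0.19 ± 0.12 (adjusted p = 0.46). *Calhm2*, from another family of large-pore channels, had 0.18 ± 0.08 (adjusted p = 0.16) and passed under a replicate block on the sample number (adjusted p = 0.0437). *Calhm5* had -0.24 ± 0.10 against spironolactone (adjusted p = 0.17) and also passed with that block (adjusted p = 0.0150). By sample number limma called 0 of 10, with 4 at an unadjusted p under 0.05, and edgeR called 1 of 8 (*Lrrc8e*). Between spironolactone and vehicle limma called 0 of 10, edgeR 0 of the 7 it tested and DESeq2 0 of the 6 with an adjusted p, with 0 at an unadjusted p under 0.05 in these 3.

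Receptors, enzymes and transporters of extracellular nucleotides handle the ATP that *Panx1* channels release. Of 24 listed, 21 were tested, and against vehicle 1 was called higher and 1 lower, beside 5.68% and 4.74% of all genes, with a median of 0.05. *Slc29a1*, an equilibrative nucleoside transporter, rose by 0.25 ± 0.07 (limma adjusted p = 0.0195), from a mean of 2533 to 3025 normalized counts. It was also called against spironolactone (0.23 ± 0.07, adjusted p = 0.0466), but that call was lost whenever a single library was left out, and the one against vehicle without each of 7 (adjusted p up to 0.13). Those fits held no block. With all libraries and a replicate block on the sample number, *Slc29a1* had a limma adjusted p of 8.31e-05 against vehicle and 0.000450 against spironolactone. *P2rx1*, an ATP-gated cation channel, was called lower against vehicle (limma adjusted p = 0.0265) and spironolactone (adjusted p = 0.00751) on very few reads, 14 over the vehicle libraries, 1 over the aldosterone libraries and 19 over the spironolactone libraries. Its call against vehicle was lost without each of 6 libraries (adjusted p up to 0.0964). edgeR left it out for low counts, DESeq2 gave it no adjusted p, and no fold is given at this depth.

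Under a replicate block on the sample number 2 more genes of that list passed against vehicle. *P2rx5*, another ATP-gated channel, had 0.42 ± 0.13 (limma adjusted p = 0.0186), and *Enpp1*, which makes pyrophosphate from ATP, had -0.37 ± 0.08 (adjusted p = 0.000748). Without the block these were at an adjusted p of 0.13 and 0.0927. Against spironolactone the blocked fit added *P2rx5* (0.41 ± 0.12, adjusted p = 0.0134) and *P2ry2*, an ATP and UTP receptor (0.53 ± 0.16, adjusted p = 0.0147). Between spironolactone and vehicle limma called 0 of 21, with 2 at an unadjusted p under 0.05, edgeR 0 of the 14 it tested and DESeq2 0 of the 10 with an adjusted p. By sample number *Nt5e*, which makes adenosine from AMP, showed the largest difference of the list that passed, 0.87 ± 0.07 higher in number 2 (limma adjusted p = 8.44e-10).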

How the data were processed

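Poly(A) RNA of 12 libraries was sequenced. According to the labels, the authors aligned reads with HISAT2 (2.0.5) to mm39 and counted them with featureCounts (1.5.0-p3), and the study's methods name mm9 instead. Gene starts in the tables matched the older annotation for 8 of 20645 genes, so coordinates are given as labelled. A strand setting for counting is not given in the sources used here. The deposited values are signal, namely gene counts divided by DESeq2 size factors, in 1 table per pair of treatments. The authors' fold changes and p-values in the same tables were not used. Whole reads were recovered from 22 of 24 columns (100% of values within 0.001 of a whole read).

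limma (3.58.1, R 4.3.3; trend) was run on log2(value + 1) of every gene in a table with Benjamini-Hochberg adjustment, and a gene counted as called where the adjusted p was 0.05 or less, whatever its fold change. The sample number and its interaction with aldosterone were fitted on 12 libraries scaled together. Tests were checked on simulated data, with treatment changes larger than most reported here and only in well-counted genes. That check does not cover small differences or low counts. Alternatives were edgeR (4.0.16), DESeq2 (1.42.0), TMM scaling, a pseudocount of 0.5, a mean of at least 10, replicate blocks and leaving out each library. Across treatments, deviations from the group means were shared between libraries of equal sample number (24 pairs, correlation 0.13 to 0.28), unlike those of equal biological replicate number (mean -0.01), so the sample number was taken to pair them. Named were all members and family genes with at least 10 reads in a library, the genes called against vehicle in 3 related lists, and those nearest in profile. Some genes of the family are not reported here and enter no count of family genes. Further genes, including those called in a blocked fit or by sample number, were named after their values were seen. The members and lists were chosen with earlier results of these data known.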

Additional observations from a re-analysis of the deposited data

Results flagged for a closer look

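In 27 groups of 4 libraries (9 channel genes in 3 treatments), 1 held a library far from the others by Dixon's criterion, which chance meets in about 1 of 20 groups. *Gja4* had 2.41 normalized counts in the spironolactone library of sample number 1 and replicate 2, which is 3 reads, with the others at 6.05 to 6.40. *Panx3*, a pannexin of bone and skin, moved apart between sample numbers with aldosterone against spironolactone. It was 0.58 higher on the log2 scale in number 1 and 0.27 lower in number 2, with no overlap between the plates of either number. This difference was not tested. The related interaction of *Panx3* with aldosterone against vehicle was -0.51 ± 0.45 (limma adjusted p = 0.93).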

How the results depend on the processing

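The log2 fold changes of the 4 members stayed within 1 SD between libraries under all 15 alternatives of each treatment comparison. With aldosterone they were negative in each against vehicle and spironolactone. The replicate blocks and the mean of at least 10 could not move these estimates, because the design is balanced and the filter keeps each member's values. For *Gjb2* the fold changes ran from -2.48 to -2.01 against vehicle, and for *Panx1* from -0.47 to -0.29. Between spironolactone and vehicle the signs of *Gjb2* and *Panx1* turned in 3 of 15. Under a replicate block on the sample number, further family genes called higher with aldosterone were 1 against vehicle and 1 against spironolactone, genes of the 3 related lists called higher against vehicle were 8, and those called lower against spironolactone were 5. Over all genes the block called 2371 higher and 2192 lower against vehicle and 2095 and 1879 against spironolactone (1553 and 1294, and 1361 and 1093, without it). A block on the biological replicate number changed no call of a channel gene. Leaving out single libraries gave 0 further family genes higher against vehicle, 2 to 5 genes of the related lists higher and 1 to 3 lower, and 3 to 4 higher against spironolactone, with fewer samples in each fit. By sample number, edgeR and a mean of at least 10 each called 2 channel genes higher, the second being *Panx3*, and vehicle and spironolactone libraries alone gave 2 lower in place of 3. Without gene length *Panx1* made up 83.9% of the pannexin counts in vehicle. Genes such as *Gjb2* with aldosterone rest on 12 to 21 reads per library, which limits the precision of its fold change.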
